A study of Mus musculus with 576 samples.

Results

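The epithelium and the mesenchyme of the embryonic mouse pancreas were compared in single cells sorted from 1 reporter line and processed side by side on plates 8A and 8B. Cells of genotype Prox1-GFP with at least 1000 genes above 0 and at least 100000 counts were kept, and levels were expressed as counts per 1000000 counts (CPM). A cell was called epithelial at an Epcam level of 50 CPM or more, and mesenchymal at an Epcam level under 20 CPM, an Upk3b level under 20 CPM and a Vim level of 100 CPM or more. Of the 576 cells of the series, 96 on plate 8A and 96 on plate 8B were of this line. On plate 8A 93 cells passed the filter, of which 58 were epithelial, 31 mesenchymal and 4 in neither class. On plate 8B 92 passed, of which 49 were epithelial, 41 mesenchymal and 2 in neither class. The other 7 cells held 505 to 680 genes and were left out. Counts of cells below are out of the 58 and 49 epithelial cells and the 72 mesenchymal cells.

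All cells came from the dorsal pancreas at embryonic day 12.5 and were sorted as GFP+ cells. In the Prox1-GFP line the fluorescent protein is made from a bacterial artificial chromosome that carries the Prox1 locus, on a C57BL/6J background. Both classes therefore hold only cells that passed the sorting gate for this protein. Whether each of them made the protein was not tested. The other 2 lines of the series, Nkx2.5-Cre;mTmG and Nkx3.2-Cre;mTmG, carry GFP in the descendants of cells that expressed a Cre recombinase from Nkx2.5 or Nkx3.2. They were used here only for levels in cells that pass the same mesenchymal rule. The labels name no embryo or litter. The line was therefore treated as a single sample, its cells were not used as replicates, and neither tests nor standard errors are given. Intervals in square brackets are exact 95% Poisson intervals of the summed counts, or exact 95% binomial (Clopper-Pearson) intervals of a share of cells. They cover counting error only, and reads without molecular identifiers are not independent molecules.

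The pancreatic bud at this stage is a branching epithelium of endodermal origin, embedded in mesoderm-derived mesenchyme. Epithelial cells are held together by E-cadherin junctions, tight junctions and keratin filaments, and contain progenitors of acinar, ductal and endocrine cells. The mesenchyme deposits fibrillar collagens and secretes ligands, among them Fgf, Wnt and Igf family members, that are known to control growth and differentiation of the epithelium. The homeobox factor Prox1 is known from the pancreatic epithelium and also from lymphatic endothelium and liver.

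Zeb and Snail factors, repressors known to act on epithelial genes, bind the E-box letters CACCTG, read as CAGGTG on the other strand. These letters were searched on both strands in the RefSeq promoter windows of GRCm38.p6, which run from 250 bases before a gene's start to 50 bases after it. They occurred in a window of 20 of the 22 epithelial marker genes with an entry (90.9%), against 6098 of 27025 genes with an entry overall (22.6%), and Spint1 and Cgn were those without a match. Cdh1, Krt19, Esrp1, Esrp2, Grhl2, St14, Pkp3 and Prss8 had no entry and were not searched. Of the mesenchymal marker genes, 3 of 13 held the letters, and of the mesenchymal transcription factor genes 2 of 24 (8.33%). To show how the letters lie, the 250 bases before the start are printed for the 4 epithelial marker genes past the fold with the most matches in the window, in lower case and 5′ to 3′ on the strand of the gene, with CACCTG and CAGGTG in capitals. They are the windows of Ap1m2 (chr9:21312334-21312583, minus strand), Lsr (chr7:30973470-30973719, minus strand), Spint2 (chr7:29281978-29282227, minus strand) and Crb3 (chr17:57061951-57062200, plus strand).
Ap1m2: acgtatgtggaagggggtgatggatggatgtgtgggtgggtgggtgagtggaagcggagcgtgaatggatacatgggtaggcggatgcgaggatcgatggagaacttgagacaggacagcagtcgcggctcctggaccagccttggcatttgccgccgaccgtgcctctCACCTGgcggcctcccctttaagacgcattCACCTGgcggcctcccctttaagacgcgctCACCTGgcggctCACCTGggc
Lsr: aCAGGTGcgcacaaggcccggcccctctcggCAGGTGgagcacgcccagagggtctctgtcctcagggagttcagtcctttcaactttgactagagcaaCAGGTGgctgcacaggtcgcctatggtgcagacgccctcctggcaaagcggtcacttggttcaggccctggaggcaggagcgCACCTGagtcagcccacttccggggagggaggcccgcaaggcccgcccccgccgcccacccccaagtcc
Spint2: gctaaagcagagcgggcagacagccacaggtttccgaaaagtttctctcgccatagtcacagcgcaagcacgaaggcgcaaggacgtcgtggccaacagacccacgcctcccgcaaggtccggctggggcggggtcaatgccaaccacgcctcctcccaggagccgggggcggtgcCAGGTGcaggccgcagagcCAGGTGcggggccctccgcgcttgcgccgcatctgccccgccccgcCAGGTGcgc
Crb3: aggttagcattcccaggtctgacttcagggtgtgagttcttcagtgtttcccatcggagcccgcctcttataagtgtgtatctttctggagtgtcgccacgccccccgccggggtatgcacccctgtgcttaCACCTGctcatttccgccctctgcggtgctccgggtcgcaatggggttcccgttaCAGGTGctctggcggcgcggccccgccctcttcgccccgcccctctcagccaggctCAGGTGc
A match is a run of letters and not a measured binding site. Ap1m2, an adaptor subunit of epithelial sorting, was at 110.6 CPM in the epithelium with 0 counts in the mesenchyme, and Crb3, an apical polarity protein, at 77.3 CPM with 0 counts. Spint2, an inhibitor of membrane serine proteases, was at 589 and 5.89 CPM, and Lsr, a protein of tricellular junctions, at 160.7 and 18.1 CPM. Among all genes at least 4-fold higher in the epithelium, defined further on, 254 of 607 with an entry held the letters (41.8%), against 71 of 420 of those higher in the mesenchyme (16.9%) and 1494 of 7942 genes past the fold in neither direction (18.8%). The median GC content of the windows was 60.8% over the epithelial marker genes, 61.3% over genes read and 52.8% over all genes with an entry.

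The levels that chose the cells are given as a description. The lowest epithelial cell had 62.4 CPM of Epcam, the highest mesenchymal cell 3.67 CPM and the highest cell in neither class 30.3 CPM, and 67 of the 72 mesenchymal cells had none. The lowest mesenchymal cell had 108.8 CPM of Vim. Of the epithelial cells, 63 also reached the Vim level of 100 CPM, 40 of 58 on plate 8A and 23 of 49 on plate 8B. Upk3b, a mesothelial gene, reached 20 CPM in 1 cell, which was epithelial (52.3 CPM). Epithelial cells held 474482 to 1237710 counts (median 824974) and mesenchymal cells 224814 to 1256780 (median 779242). The median number of genes per cell was 7683 and 6462.5, and 6253 and 5226.5 after every cell was thinned to 100000 counts. The median mitochondrial share was 3.19% and 3.16%.

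Single cells on each side went against their class. The epithelial cell in well A11 of plate 8B had 161.4 CPM of Epcam, but 0 for Cdh1, Krt8, Krt18, Cldn6 and Prox1, 480 CPM of Vim, 734 CPM of Col1a1 and 381 CPM of Col3a1. Its 30 epithelial marker genes summed to 2.11 CPM, against 2319 CPM in the next lowest epithelial cell. Without this cell the epithelial level of 15 of the 69 mesenchyme-higher genes that the naming rule takes was lower by more than 1.5 times, and the level without it is given beside each such gene described here. The mesenchymal cell in well C9 of plate 8A held 18236 CPM over 10 immune markers, with 6540 CPM of the complement gene C1qb, 2247 CPM of the macrophage receptor Csf1r, and 0 for Col3a1 and Pdgfra. The next highest mesenchymal cell was at 287 CPM. Of the genes that rule takes, Laptm5 alone had a mesenchymal level that was lower by more than 1.5 times without this cell, at 8.40 in place of 20.7 CPM.

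**Figure D1:**
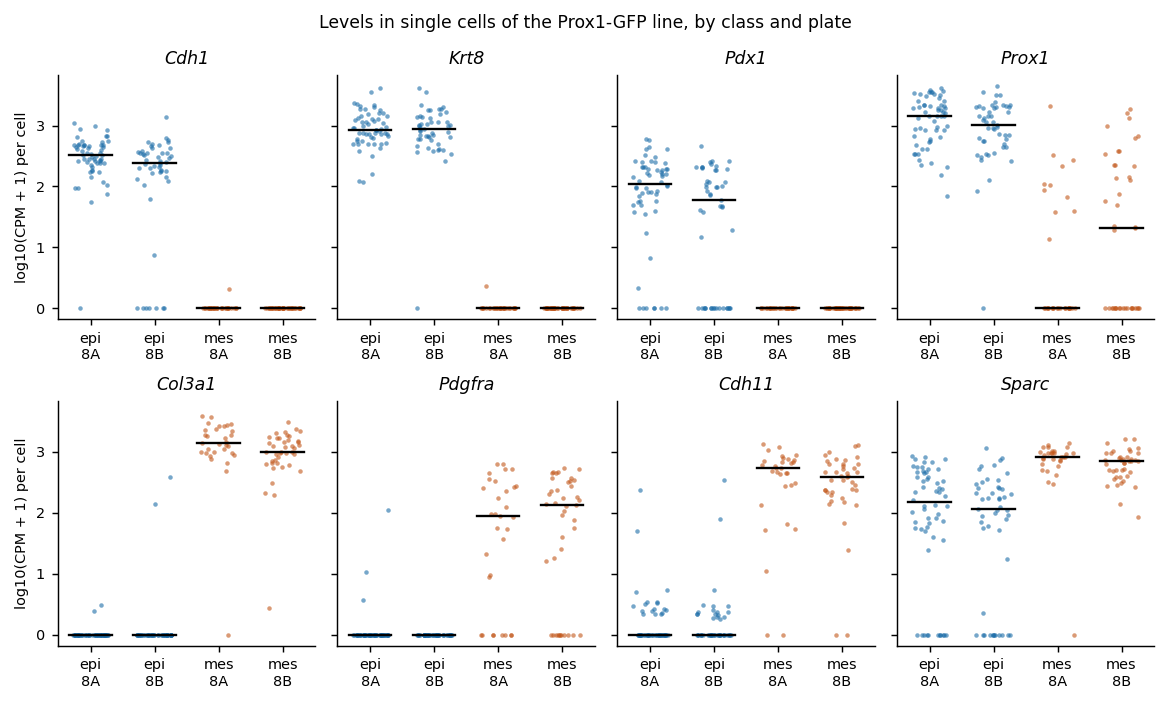
Each point is 1 cell of the Prox1-GFP line and the vertical axis is log10(CPM + 1); the 4 columns of a panel are the epithelial (epi) and mesenchymal (mes) cells of plates 8A and 8B, and the bars are medians. Cdh1, Krt8 and Pdx1 were at or near 0 in every mesenchymal cell, Col3a1 was at 0 in all but 4 epithelial cells, and Prox1 and Sparc were found in both classes.

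The epithelial class carried the markers its name calls for. Of the 30 epithelial markers, a list that leaves out Epcam, all were read, meaning that the mean of the class levels was at least 5 CPM. Of these, 28 were at least 4-fold higher in the epithelium in both plates. Over all genes this was true of 6.95%, or 812 of 11688 genes read. The median log2 ratio was 9.25 for the list and 0.011 over all genes read. E-cadherin (Cdh1, chr8:106603351-106670246) ranged from 0 to 1397 CPM in epithelial cells (median 286) and from 0 to 1.10 CPM in mesenchymal cells. Its level was 323 CPM [320 to 327] in the epithelium (371 on plate 8A and 275 on plate 8B), and 1 count in 1 cell made up its mesenchymal level. Keratin 8 (Krt8, chr15:101996698-102004482), a filament protein of simple epithelia, was at 1072 CPM, from all but 1 epithelial cell, with 96867 counts in the epithelium and 1 in the mesenchyme. The tight junction gene Cldn6 was at 1044 CPM with 1 mesenchymal count. The 2 members within the fold were Prom1, a membrane glycoprotein (113.9 and 79.1 CPM), and Patj, a polarity scaffold (49.9 and 15.1 CPM).

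The mesenchymal class was checked in the same way. Of 24 mesenchymal markers, a list without Vim, 23 were read and 20 were at least 4-fold higher in the mesenchyme in both plates, against 5.08% of all genes (594 of 11688), with a median log2 ratio of -4.47. The type III collagen gene Col3a1 (chr1:45311538-45349706) ranged from 0 to 3951 CPM in mesenchymal cells (median 1246) and was counted in 71 of 72. Its level was 1394 CPM [1384 to 1404] (1741 on plate 8A and 1163 on plate 8B), and 5.27 CPM in the epithelium, or 1.29 CPM without the cell of well A11. The platelet-derived growth factor receptor Pdgfra (chr5:75152292-75198215) was at 177.6 CPM, from 53 cells, and at 1.06 CPM in the epithelium, from 3 cells. The 3 markers within the fold were Fn1 (140.8 CPM in the epithelium and 111.4 in the mesenchyme), Sparc (212 and 725 CPM) and Cdh2 (48.8 and 217 CPM), which code for fibronectin, a collagen-binding matrix protein and N-cadherin. N-cadherin was 8.14-fold higher in the mesenchyme on plate 8A and 2.64-fold on plate 8B.

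Most genes differed little between the classes. Of the genes read, 6643 (56.8%) lay within 2-fold in both plates, and the quartiles of the log2 ratio were -0.46 and 0.54. The direction was the same in both plates for 71.8% of genes, and of the 2054 genes past 4-fold on plate 8A, 1406 were past it the same way on plate 8B. In all, 24 genes were past the fold in opposite directions. Genes higher in the epithelium made up 7.67% of the counts of epithelial cells and 0.277% of those of mesenchymal cells. Genes higher in the mesenchyme made up 6.86% of mesenchymal and 0.583% of epithelial counts. Of the 812 epithelial genes, 198 had no count in any mesenchymal cell, and of the 594 mesenchymal genes, 30 had none in any epithelial cell.

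**Figure D2:**
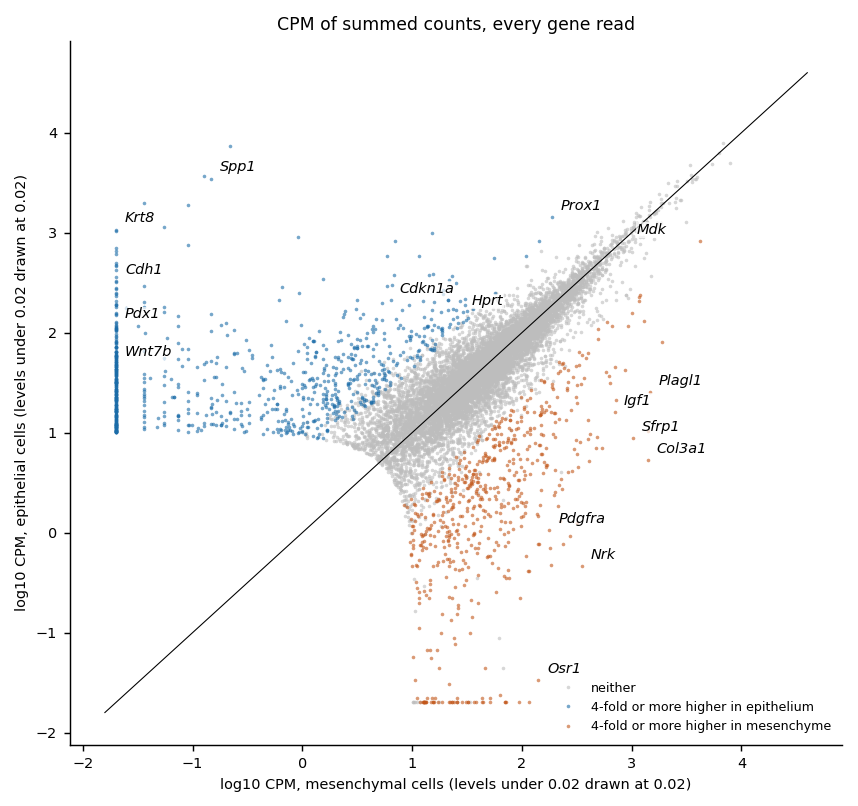
Each point is 1 of 11688 genes read; the axes are log10 CPM of the summed counts of the 72 mesenchymal cells (horizontal) and of the epithelial cells (vertical), the line marks equal levels, and levels under 0.02 CPM are drawn at 0.02. The 812 genes at least 4-fold higher in the epithelium in both plates are blue and the 594 higher in the mesenchyme orange; Cdh1, Krt8, Pdx1 and Wnt7b sit at the left edge with 1 or no mesenchymal count.

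**Figure D3:**
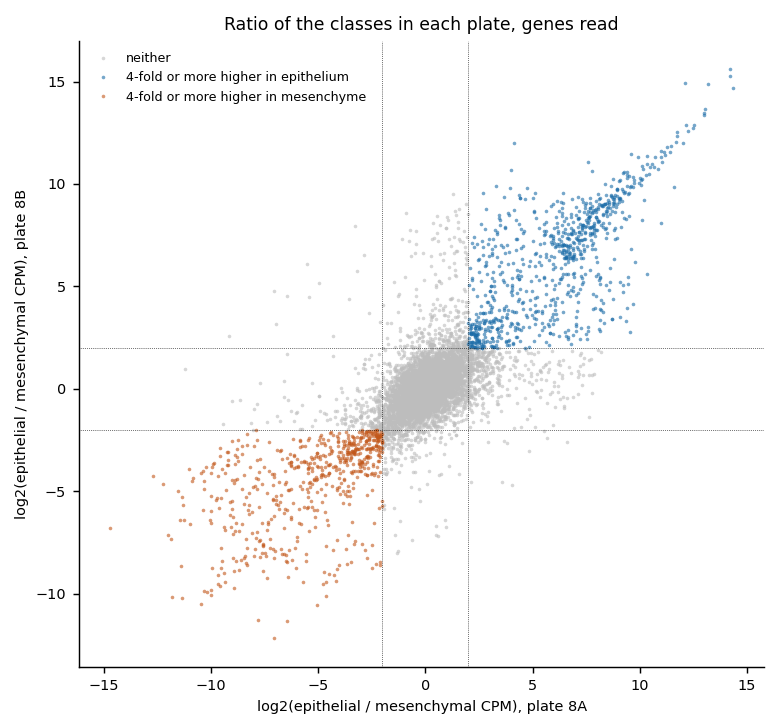
Each point is 1 gene read; the axes are the log2 ratio of epithelial to mesenchymal CPM on plate 8A (horizontal) and plate 8B (vertical), with a class under 3 counts set to 3, and the dotted lines mark 4-fold. Genes past the fold in both plates are blue (812) and orange (594), and 24 genes lie past it in opposite corners.

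The 15 genes that led the epithelial side coded mainly for secreted and junctional proteins. Spp1, coding for osteopontin and known from duct cells, was at 3476 CPM (3803 on plate 8A and 3144 on plate 8B) and ranged from 0 to 25488 CPM in epithelial cells (median 2514). It was at 0.146 CPM in the mesenchyme, from 8 cells of at most 1.58 CPM. Transthyretin (Ttr), a carrier of thyroid hormone and retinol-binding protein, was at 1976 CPM, with a median of 342 and a highest cell of 61092 CPM. The rest were Ambp (1151 CPM), the vitamin D carrier Gc (657 CPM), the colipase gene Clps (474 CPM), the protease gene Habp2 (421 CPM), the glucocorticoid carrier Serpina6 (364 CPM), vitronectin (Vtn, 331 CPM), ccdc198 (280 CPM), Cldn6, Krt8, Cdh1 and 3 genes of the alpha-1-antitrypsin family. The family members Serpina1b, Serpina1c and Serpina1e (498, 695 and 467 CPM) are near-identical in sequence, so the split of counts between them is uncertain. None of the 15 exceeded 8 counts in the whole mesenchymal class.

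Proteins usually named for the liver were thus part of the epithelial side. Of 16 such genes, 11 were read and 10 were past the fold in the epithelium, against 6.95% of all genes, with a median log2 ratio of 11.67. Alpha-fetoprotein (Afp) was at 178.7 CPM, from 66 cells, and had 1 mesenchymal count. Albumin (Alb) was under the level read, at 5.59 CPM in the epithelium from 8 cells, with 0 mesenchymal counts. The summed level of the list ranged from 0 to 70415 CPM in epithelial cells (median 3526) and from 0 to 722 CPM in mesenchymal cells (median 0).

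Regulators of pancreatic progenitors were found on the epithelial side. Of 28 listed genes 23 were read, and 18 were at least 4-fold higher in the epithelium and none in the mesenchyme (median log2 ratio 8.81). Over all genes these shares were 6.95% and 5.08%. Pdx1 (chr5:147269959-147275848), a homeobox factor needed for the organ to form, ranged from 0 to 611 CPM in epithelial cells (median 93.8) and had 0 counts in all 72 mesenchymal cells. Its epithelial level, from 83 cells, had an interval of 115.8 to 120.3 CPM (145.5 on plate 8A and 90.05 on plate 8B), at least 2162-fold higher than a mesenchymal floor of 3 counts. Foxa2, a forkhead factor of the endoderm, was at 125.8 CPM with 0 mesenchymal counts, at least 2305-fold higher. Onecut1, another endoderm factor, was at 116.5 CPM with 2 mesenchymal counts. Sox9, a progenitor factor, was at 579 CPM in the epithelium and 11.6 CPM in the mesenchyme. The 5 read members within the fold were Hes1 (190.1 and 117.4 CPM), Tcf7l2 (258 and 190.5), Sox4 (132.6 and 222), Id2 (490 and 407) and Gata6 (24.05 and 6.08 CPM), factors with uses in many tissues.

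Genes of the acinar, ductal and endocrine lineages were measured in different shares of the epithelial cells. Over all genes, 6.95% were past the fold in the epithelium, the share to set beside each list here. Of 12 acinar and tip genes, 9 were read and 8 were past the fold. The carboxypeptidase gene Cpa1 was at 991 CPM, with a median cell of 154.1 and a highest of 14400 CPM, and was counted in 65 cells. Ptf1a, the acinar and progenitor factor, was at 51.3 CPM from 42 cells. All 10 trunk and duct genes that were read, of 12 listed, were past the fold, among them Muc1 (128.8 CPM, 0 mesenchymal counts) and Nkx6-1 (106.2 and 0.236 CPM). Of 24 endocrine genes, all were read and 22 were past the fold. The glucagon gene Gcg was at 7420 CPM (4331 on plate 8A and 10560 on plate 8B), but it was counted in only 32 epithelial cells and the highest had 141047 CPM. Peptide YY (Pyy, 1900 CPM) and the granule proteins Chgb (612 CPM) and Chga (180.6 CPM) were likewise at a median of 0. In 25 epithelial cells, 23.4% [15.7 to 32.5], Neurog3, Neurod1, Chga and Chgb summed to 200 CPM or more (13 of 58 on plate 8A and 12 of 49 on plate 8B). No mesenchymal cell reached this sum, which allows a share of up to 4.99%. The GFP gate bears on these shares.

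The 2 endocrine genes within the fold were Sst and Isl1. Somatostatin (Sst) came from 1 epithelial cell at 3587 CPM. The summed level of Isl1, a homeobox factor of both endocrine cells and foregut mesoderm, was alike in the classes at 186.2 CPM in the epithelium (116.6 on plate 8A and 257 on plate 8B) and 183.3 CPM in the mesenchyme (216 and 161.5). It was counted in 21 epithelial cells (19.6%, and 17.8% after thinning) and in 56 of 72 mesenchymal cells (77.8%, and 72.2% after thinning). The highest epithelial cell had 2411 CPM and the highest mesenchymal cell 1013 CPM, and the medians were 0 and 114.8 CPM.

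Prox1 itself (chr1:190118035-190170714), whose locus drives the reporter, was past the fold in the epithelium but not limited to it. Its level was 1427 CPM [1419 to 1435] in the epithelium (1596 on plate 8A and 1255 on plate 8B) and 186.5 CPM [182.9 to 190.2] in the mesenchyme (106.5 and 240), a ratio of 14.98 on plate 8A and 5.23 on plate 8B. Epithelial cells ranged from 0 to 4522 CPM (median 1306), with 1 of them at 0. Mesenchymal cells ranged from 0 to 2135 CPM (median 0), with 33 of 72 above 0 (45.8%, and 43.1% after thinning). A level of 50 CPM was reached by 25 of the 72, 8 of 31 on plate 8A and 17 of 41 on plate 8B, so the classes overlapped. In cells of the other lines that passed the mesenchymal rule, Prox1 was at 0.225 CPM in Nkx2.5-Cre;mTmG and 0.803 CPM in Nkx3.2-Cre;mTmG. Those cells were on other plates and were not sorted on a Prox1 reporter. Line, sorting gate and plate therefore cannot be told apart. Prox1 transcript from the transgene and from the gene cannot be told apart in these counts.

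The 15 genes that led the mesenchymal side were Pmp22, Nrk, Col14a1, Axl, Nfam1, Lef1, Syt6, Cd248, Kif26b, Olfml3, Col3a1, Ptger3, Sfrp1, Pdgfra and Grik1. Pmp22, a membrane protein best known from myelin, ranged from 0 to 1102 CPM in mesenchymal cells (median 43.3), was at 115.6 CPM overall and had 0 counts in all epithelial cells, at least 3483-fold higher. Nrk, a kinase of embryonic mesenchyme, was at 350 CPM in the mesenchyme, from 66 of 72 cells, and at 0.465 CPM in the epithelium. Sfrp1, a secreted Wnt antagonist, was at 1019 CPM [1011 to 1028] and 8.78 CPM, and was counted in 71 mesenchymal and 18 epithelial cells. The receptor tyrosine kinase Axl was at 184.4 and 0.476 CPM, Olfml3, a secreted matrix protein, at 317 and 1.24 CPM, and Syt6, a synaptotagmin, at 276 and 0.934 CPM. Cd248, a stromal cell surface protein, was at 235 CPM in the mesenchyme, and its 69 epithelial counts all came from the cell of well A11.

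Transcription factors of the mesenchyme were grouped apart from the markers. Of 38 listed genes 30 were read, 23 were past the fold in the mesenchyme and none in the epithelium (median log2 ratio -5.11). Over all genes these shares were 5.08% and 6.95%. Osr1, a zinc finger factor of intermediate and lateral mesoderm, was at 140.8 CPM in the mesenchyme (236 on plate 8A and 77.1 on plate 8B) from 33 of 72 cells, with 3 epithelial counts. Hoxa5 (70.04 CPM) and Nkx3-2 (22.98 CPM), the latter a homeobox factor whose locus drives Cre in another line of the series, had 0 epithelial counts, and were at least 2110-fold and 692-fold higher. The E-box binding repressors were among the members. Zeb2 was at 213 CPM in the mesenchyme and 1.83 in the epithelium, Zeb1 at 82.7 and 8.62, and Snai2 at 190.3 and 9.80 CPM. Nr2f2, an orphan nuclear receptor, was at 722 and 21.2 CPM. Meis1 was also found in the epithelium (109.5 CPM, against 495).

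Most interstitial matrix genes were higher in the mesenchyme, while the basement membrane genes past the fold were divided between the classes. Of 30 interstitial matrix genes 28 were read and 24 were past the fold in the mesenchyme, none in the epithelium (median log2 ratio -5.27). The collagen gene Col14a1 was at 178.7 CPM in the mesenchyme and 0.697 in the epithelium, and Col6a2 at 71.7 and 0.354 CPM. The fibrillar collagen gene Col1a1 was at 1408 CPM and counted in all 72 mesenchymal cells. Of 25 basement membrane genes 20 were read, 3 were past the fold in the epithelium and 4 in the mesenchyme (median log2 ratio 0.01). Over all genes these shares were 6.95% and 5.08%. The laminin chain Lama5 (92.6 CPM) had 0 mesenchymal counts, and was at least 1696-fold higher in the epithelium. The nidogens, linkers of laminin and collagen IV, were mesenchymal, Nid1 at 231 CPM against 2.70 CPM and Nid2 at 68.1 against 1.84 CPM. Nid1 was at 0.0659 CPM in the epithelium on plate 8A and 5.38 CPM on plate 8B, and in the epithelium at 0.034 CPM over both plates without the cell of well A11. The Fras1-related pair lay on opposite sides, Frem2 at 189.4 CPM in the epithelium and 9.44 in the mesenchyme, and Frem1 at 4.76 (1.14 without the cell of well A11) and 165.004 CPM.

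Adhesion and cytoskeletal genes were divided as well. Over all genes, 6.95% were past the fold in the epithelium and 5.08% in the mesenchyme, the shares to set beside each list here. Of 10 integrin genes read, of 18, Itga3, Itga6 and Itgb6 were past the fold in the epithelium and Itga8 in the mesenchyme. In a list this small, a single mesenchymal gene does not stand apart from the share of all genes. Itga6, a laminin receptor chain, was at 133.5 and 30.7 CPM, and Itga8, a nephronectin receptor chain, at 1.56 in the epithelium (0.0671 without the cell of well A11) and 106.6 CPM in the mesenchyme. The common chain Itgb1 was at 322 and 427 CPM. Of 17 cadherins, protocadherins and catenins read, of 27, Cdh1 and Cdh3 (102.02 and 4.42 CPM) were past the fold in the epithelium and 7 in the mesenchyme, among them Cdh11 (7.07 and 473 CPM) and Pcdh18 (9.02 and 480 CPM). Without the cell of well A11 these were at 3.49 and 2.002 CPM in the epithelium. Beta-catenin (Ctnnb1) was at 671 and 621 CPM. All 27 cytoskeletal genes were read, with 5 past the fold in the epithelium and 8 in the mesenchyme. Of the membrane-actin linkers, ezrin (Ezr) was at 109.5 CPM in the epithelium and 4.29 in the mesenchyme, and moesin (Msn) at 12.01 and 149.8 CPM.

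**Figure D4:**
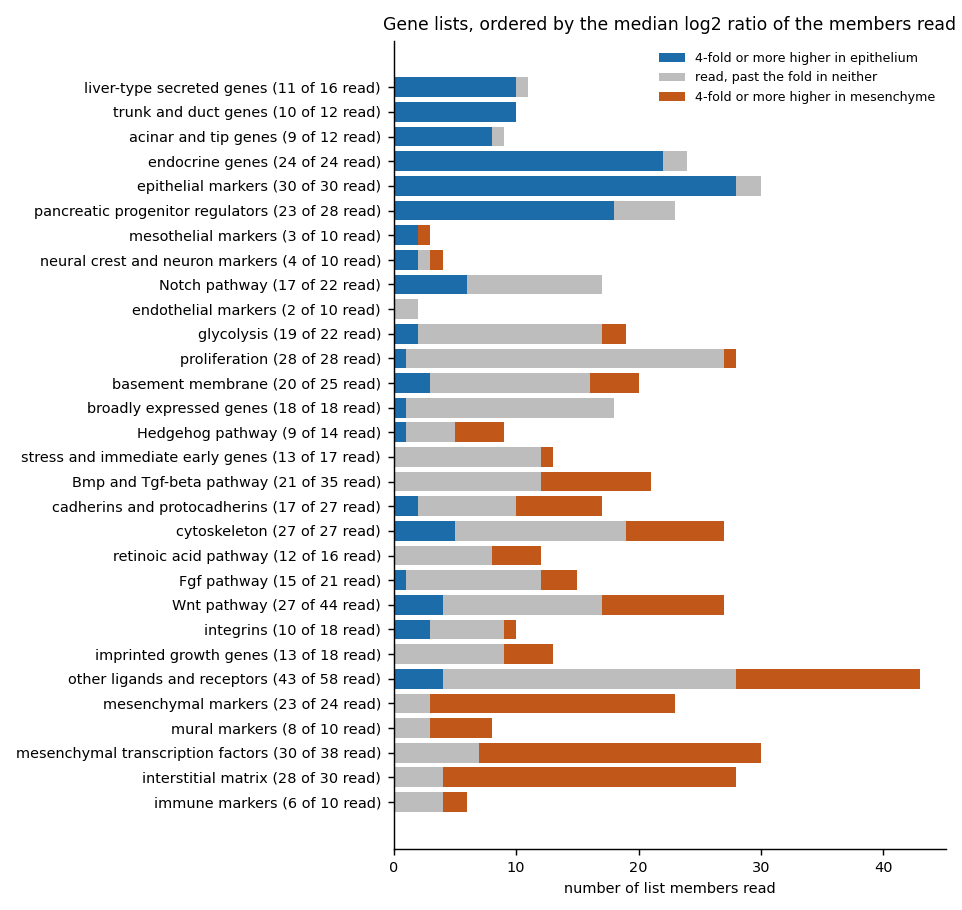
Bars count the members of each gene list that were read, by those at least 4-fold higher in the epithelium in both plates (blue), in the mesenchyme (orange) or in neither (grey); lists are ordered by the median log2 ratio of the members read. All 10 trunk and duct genes read were blue, 24 of 28 interstitial matrix genes read were orange, and 26 of 28 proliferation genes were grey. Of all 11688 genes read, 10282 were past the fold in neither direction.

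Signalling pathways differed in how their genes past the fold were divided. The Wnt, Hedgehog and Fgf lists had such genes on both sides. Those of the Notch list were all epithelial, and those of the Bmp and Tgf-beta and retinoic acid lists all mesenchymal. These lists are small, and their empty sides do not stand apart from the shares of all genes. Of 44 Wnt pathway genes 27 were read, 4 were past the fold in the epithelium and 10 in the mesenchyme (6.95% and 5.08% over all genes). The ligand Wnt7b (chr15:85535437-85582473) was at 48.9 CPM in the epithelium (75.6 on plate 8A and 21.8 on plate 8B) with 0 mesenchymal counts, at least 896-fold higher. The ligand Wnt5a was at 158.996 CPM in the mesenchyme and 5.09 CPM in the epithelium, or 1.86 CPM without the cell of well A11. The transcription factor Lef1 was at 108.3 CPM in the mesenchyme and 0.588 in the epithelium. The ubiquitin ligase Rnf43, a negative regulator of Wnt receptors, was at 22.9 CPM in the epithelium with 0 mesenchymal counts.

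Of 14 Hedgehog pathway genes 9 were read, and 4 were past the fold in the mesenchyme and 1 in the epithelium (5.08% and 6.95% over all genes). In a list this small, 1 epithelial gene does not stand apart from the share of all genes. Gli2 (1.17 and 30.4 CPM), Gli3 (0.443 and 60.998), Gas1 (12.8 and 200 CPM) and Boc (1.60 and 58.6 CPM), the first pair transcription factors and the second co-receptors, were the mesenchymal members. Hhip, which binds Hedgehog ligands, was at 22.4 CPM in the epithelium, from 22 cells, with 0 mesenchymal counts. The receptor Ptch1 was within the fold, at 32.97 CPM in the epithelium and 9.66 in the mesenchyme, and the transducer Smo was level, at 59.9 and 59.95 CPM. Shh, a ligand known to be kept low in the pancreatic bud, was under the level read, at 0.454 CPM in the epithelium.

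Of 22 Notch pathway genes 17 were read and 6 were past the fold in the epithelium, against 6.95% of all genes. None was past it in the mesenchyme, where 5.08% of all genes were, a share too low for 0 of 17 to stand apart. The ligand Dll1 was at 48.02 and 0.473 CPM, the receptor Notch1 at 113.8 and 13.8 CPM, and the target Nrarp at 23.9 CPM with 0 mesenchymal counts. The ligand Jag1 (163.8 and 305 CPM) and the receptor Notch2 (224 and 293 CPM) were within the fold, and Notch2 was counted in all 72 mesenchymal cells. Dll3 (11.8 and 0.281 CPM) was higher in the epithelium only with endocrine cells included, and without the 25 cells defined above its log2 ratio went from 5.43 to -0.97.

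Of 35 Bmp and Tgf-beta genes 21 were read and 9 were past the fold in the mesenchyme, against 5.08% of all genes, and none in the epithelium, where the share of all genes was 6.95%. The 9 included the ligand Tgfb2 (9.75 and 118.1 CPM), the receptor Tgfbr2 (7.19 and 56.2 CPM) and the latent binding protein Ltbp1 (5.47 and 83.3 CPM). Bmp7 was 5.56-fold higher in the epithelium on plate 8A and 2.91-fold on plate 8B (167.4 and 41.3 CPM), and so was not counted. Of 16 retinoic acid genes 12 were read and 4 were past the fold in the mesenchyme and none in the epithelium (5.08% and 6.95% over all genes). The 4 were Rdh10, the dehydrogenase that starts retinoic acid synthesis (7.08 and 167.1 CPM), the receptor Rarb (0.421 and 26.8), the carrier Crabp2 (2.18 and 85.6) and the uptake receptor Stra6 (2.25 and 42.6 CPM).

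Among Fgf genes, 15 of 21 were read. The receptor Fgfr4 was at 63.6 CPM in the epithelium with 1 mesenchymal count, while Fgfr2 was level (88.4 and 94.4 CPM) and Fgfr1 was 3.21-fold and 4.61-fold higher in the mesenchyme on the plates (30.5 and 122.03 CPM). Fgf1, Flrt3 and Spry4 were past the fold in the mesenchyme, where 5.08% of all genes were. Fgfr4 alone was past it in the epithelium, near the 6.95% of all genes. Fgf10, a ligand known from pancreatic mesenchyme, had a mesenchymal level of 6.004 CPM from 8 of 72 cells, 0.0910 CPM on plate 8A and 9.95 on plate 8B, and was under the level read.

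Other ligand and receptor genes, 43 of 58 read, were past the fold in the epithelium in 4 cases and in the mesenchyme in 15. Over all genes these shares were 6.95% and 5.08%, so the epithelial count lay near the share of all genes. The receptor Met was at 34.4 CPM in the epithelium and 0.437 in the mesenchyme, and its ligand Hgf at 1.21 and 25.98 CPM. The epithelial Hgf level came from 1 cell. The receptor Erbb3 was epithelial (63.9 CPM, 0 mesenchymal counts, at least 1172-fold higher) and Egfr mesenchymal (0.451 and 32.6 CPM). The semaphorin Sema3c was at 50.1 and 0.164 CPM. Igf1 was at 701 CPM in the mesenchyme (947 on plate 8A and 537 on plate 8B) and 15.9 CPM in the epithelium, and ranged from 0 to 5723 CPM over mesenchymal cells, 43 of 72 of which had any. The ephrin receptor Epha4 was at 8.70 and 398 CPM, and the growth factor Ptn at 130.7 and 1292 CPM. Its relative midkine (Mdk) was even at 823 and 921 CPM. Igf2 was less even, at 320 and 811 CPM.

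**Figure D5:**
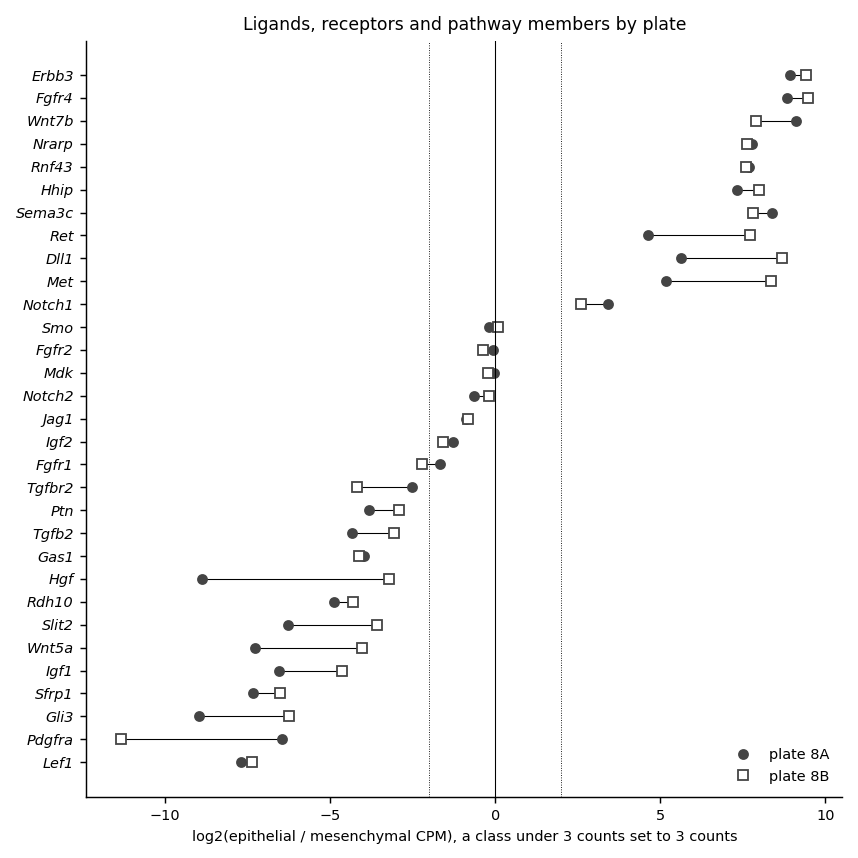
The horizontal axis is the log2 ratio of epithelial to mesenchymal CPM, with a class under 3 counts set to 3, for ligands, receptors and other pathway genes chosen after their values were seen; filled circles are plate 8A, open squares plate 8B, and dotted lines mark 4-fold. Erbb3, Fgfr4 and Wnt7b lie at the epithelial end, Smo, Fgfr2 and Mdk near 0, and Hgf and Pdgfra show the widest gaps between plates.

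Cell cycle genes differed little, as did most genes read. Of 28 proliferation genes, all read, 26 were within the fold (median log2 ratio 0.14), with 1 past it in each direction. Of all 11688 genes read, 10282 were past the fold in neither direction, 6.95% in the epithelium and 5.08% in the mesenchyme. The counts of the list lay near these shares. Mki67 was at 182.02 and 151.3 CPM, and 47 epithelial cells, 43.9% [34.3 to 53.9], and 24 mesenchymal cells, 33.3% [22.7 to 45.4], reached 50 CPM. The exceptions were a pair of inhibitors of cyclin-dependent kinases. Cdkn1a (chr17:29090976-29100727), coding for p21, was at 211 CPM [208 to 214] in the epithelium (251 on plate 8A and 169.8 on plate 8B), from 85 cells, and at 6.37 CPM in the mesenchyme (15.8 and 0.103), from 9. Cdkn1c, coding for p57, was at 206 CPM in the epithelium and 1163 CPM in the mesenchyme, 6.23-fold and 5.35-fold higher on the plates. Of the D-type cyclins, Ccnd1 was at 211 and 71.1 CPM and Ccnd3 at 236 and 887 CPM, both within the fold on at least 1 plate.

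Markers of other cell types were counted in both classes. Over all genes, 6.95% were past the fold in the epithelium and 5.08% in the mesenchyme. In lists with so few members read, no gene or a single gene past the fold does not stand apart from these shares. Of 10 endothelial markers 2 were read and none was past the fold. Pecam1, an endothelial adhesion gene, was counted at 10.7 to 117.4 CPM in every epithelial cell and at 15.6 to 180.3 CPM in every mesenchymal cell, while Cdh5, Cldn5 and Tek had 0 counts in both classes. No erythroid marker was read. Of 10 immune markers 6 were read, and Laptm5 and Lyz2 were past the fold in the mesenchyme. Without the cell of well C9 Laptm5 was at 8.40 CPM in the mesenchyme and 0.542 in the epithelium, a mean under the level of 5 CPM, so its call was lost. Mural markers summed to 0 to 10831 CPM in mesenchymal cells (median 597) and to 0 to 847 CPM in epithelial cells (median 4.17). Of 10 such markers 8 were read and 5 were past the fold in the mesenchyme, among them the pericyte genes Rgs5 (4.57 and 325 CPM) and Kcnj8 (3.98 and 157.1 CPM, with all 360 epithelial counts in the cell of well A11). Smooth muscle actin (Acta2) was at 229 CPM in the mesenchyme from 5 of 72 cells, with 3.83 CPM on plate 8A and 380 on plate 8B. Of 10 mesothelial markers 3 were read, the keratins Krt7 and Krt19 in the epithelium and Wt1 in the mesenchyme (0.621 CPM, or 0.045 without the cell of well A11, and 39.1 CPM). Of 10 neural crest and neuron markers 4 were read, with the receptor Ret (11.1 CPM, 0 mesenchymal counts) and Tubb3 (17.1 and 0.582 CPM) past the fold in the epithelium and the endothelin receptor Ednrb (0.221 and 96.5 CPM) in the mesenchyme. Without the 25 endocrine cells the log2 ratio of Tubb3 was -3.76. The part of these cells in the other results was not tested beyond leaving cells out.

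Mesenchymal levels were set beside those of the other lines. Sfrp1 was at 1019 CPM here, 943 CPM in Nkx2.5-Cre;mTmG and 757 CPM in Nkx3.2-Cre;mTmG cells that passed the mesenchymal rule, Col3a1 at 1394, 1425 and 1336 CPM, and Pdgfra at 177.6, 220 and 181.02 CPM. Igf1 was at 701, 353 and 71.9 CPM, and Isl1 at 183.3, 86.8 and 56.4 CPM. Rdh10 was at 167.1, 349 and 226 CPM. Pdx1 had 0 counts in the mesenchymal cells of all 3 lines. The Y-linked genes Ddx3y (0.0728, 115.8 and 0.110 CPM) and Eif2s3y (0.182, 113.98 and 0.0823 CPM) also differed between the lines. The sex of the embryos was not identified. Line, sorting gate, plates and embryo sex cannot be told apart in this comparison.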

How the data were processed

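Single GFP+ cells of embryonic day 12.5 dorsal pancreas were sequenced by Smart-seq2, a plate method that covers whole transcripts and uses no molecular identifiers. Per the labels and the methods, the authors trimmed reads with Trim Galore 0.6.5, estimated transcript abundance with kallisto on GRCm38 and summed it to genes with tximport. The annotation release is not given in the sources used here. The deposited values are estimated counts per gene, not normalized, and 35.5% of values above 0 in this line were not whole. Estimated counts were used as deposited, and rounded only to count cells with at least 1 count and for intervals. Depth was 224814 to 1256780 counts per cell in the 2 classes.

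Counts were summed per class and plate and divided by the class total. Genes were read at a mean of both classes of at least 5 CPM and were past the fold at a ratio of at least 4 in plate 8A and in plate 8B, with a class under 3 counts in a plate set to 3 counts. Over both plates, a class under 3 counts was set to 3 counts over the class in log2 ratios and list medians. A ratio is printed against such a class only where it is at 0, as "at least". The labels name no animal, so no test was run. Python 3.11.15 with pandas 2.3.3, numpy 2.4.6 and scipy 1.17.1 was used. The procedure was run on simulated data with planted changes larger than the fold used, shared by all cells of a class. That run does not bear on genes counted in few cells or on changes near the fold. Members and gene lists were chosen with earlier results of these data known. Leading genes are the 15 per direction, at 100 CPM or more and in at least 50% of cells of the higher class, with the largest value of the smaller plate ratio, leaving out Epcam, Upk3b and Vim and names of the Gm or Rik kind. From each list up to 4 members per direction were taken by the same measure, with members past the fold against most of their list. Even genes were up to 10 transcription factor and signalling genes of the lists at 200 CPM or more and in at least 90% of cells of both classes, with the ratio nearest 1, and 4 met this. Other list members were named for their roles after their values were seen. Coordinates are those of the GENCODE annotation of GRCm38, and promoter sequences are from RefSeq (GRCm38.p6). No sample column was left unmapped. Alternatives in level, scaling, filters, fold, plates and cells were run, and their effect is given at the end. Some members of the lists are not reported here by name.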

Additional observations from a re-analysis of the deposited data

Results flagged for a closer look

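The 6 cells that passed the filter but fell in neither class were outside the comparison. The first described here carried epithelial genes other than Epcam, and the second only Epcam, below the epithelial level. The cell in well C11 of plate 8A had no Epcam and no Vim count, but 3011 CPM of Krt8, 189.97 CPM of Cdh1 and 2865 CPM of the granule gene Chga, where mesenchymal cells had at most 1.33, 1.10 and 4.16 CPM. The cell in well H5 of plate 8A had 30.3 CPM of Epcam, against at most 3.67 CPM in mesenchymal cells, together with 396 CPM of Vim, 1021 CPM of Col3a1 and 9127 genes, and no Cdh1 or Krt8. The other 4 cells had 0 Epcam, 74.1 to 89.8 CPM of Vim and 964 to 2332 CPM of Col3a1, so they missed the mesenchymal class by their Vim level alone. No explanation was tested for these cells.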

How the results depend on the processing

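The results were recomputed under 20 other settings, 2 of them chosen after the data were seen, and of 140 recomputed counts of genes or list members 9 moved by more than 1.5 times. The 812 genes at least 4-fold higher in the epithelium became 1379 at a mean of at least 1 CPM, 363 at 20 CPM, 1634 with no filter and 1412 at 2-fold. The 594 genes higher in the mesenchyme became 335 at 20 CPM, 912 with no filter, 1096 at 2-fold, 383 at 8-fold and 907 on plate 8A alone. Without the 25 endocrine cells the counts were 667 and 671, so that the epithelial share of calls went from 57.8% to 49.9%, and in that setting the log2 ratio of Dll3 was -0.97 and that of Tubb3 -3.76, both reversed. With no filter the epithelial share was 64.2%. Other scaling moved the median log2 ratio of all genes by less than 0.1. The added settings left out the epithelial cell of well A11 (823 and 609 genes) or the mesenchymal cell of well C9 (834 and 588 genes). Of 2700 recomputed log2 ratios of 180 named genes, 2689 kept their sign, while 797 moved outside the counting interval of the main ratio. No paired analysis was possible because the line is 1 sample and no test was run. With 1 sample, depth limits only the counting error, not the spread between embryos.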

Other observations

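Of 18 imprinted growth genes 14 were found by symbol in the counts (not H19, Meg3, Mirg and Rian), and 13 were read. None was past the fold in the epithelium (6.95% over all genes) and 4 were past it in the mesenchyme (5.08% over all genes), with a median log2 ratio of -1.12. Mest, a hydrolase gene, was at 4152 CPM in the mesenchyme and 822 in the epithelium, 5.22-fold and 5.01-fold higher on plates 8A and 8B. Plagl1, a zinc finger factor, was at 1464 CPM from 71 of 72 mesenchymal cells and at 25.3 CPM from 21 epithelial cells, with 1278 CPM in the epithelial cell of well A11. Its epithelial level was 12.001 CPM without that cell. Nnat was at 923 and 115.5 CPM. Grb10, an adaptor that restrains insulin receptor signalling, and Dlk1, a membrane protein of the Notch ligand type, were level, at 1329 and 1345 CPM and at 103.9 and 99.5 CPM in epithelium and mesenchyme. Peg3 was at 3296 and 2591 CPM.

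Sugar uptake genes differed by family member. Of 22 glycolysis genes 21 were found by symbol in the counts (not Aldoa), and 19 were read. The glucose transporter Slc2a2 was at 98.5 CPM in the epithelium with 2 mesenchymal counts, and Slc2a3 at 0.962 and 68.1 CPM. The lactate dehydrogenase chain Ldhb was at 56.2 and 386 CPM, while Gapdh was at 902 and 529 CPM. Over all genes, 6.95% were past the fold in the epithelium and 5.08% in the mesenchyme. Of 18 broadly expressed genes, all read, the median log2 ratio was 0.0013 and 17 were within the fold, near the share of all genes. The exception was Hprt, an X-linked gene of purine salvage often used as a reference, at 159.2 CPM [156.7 to 161.9] in the epithelium and 29.1 CPM [27.7 to 30.5] in the mesenchyme, 5.31-fold and 5.56-fold higher on the plates. It was at 29.9 and 33.5 CPM in mesenchymal cells of the other lines. Gusb, another reference gene, was 3.27-fold and 3.67-fold higher in the epithelium.

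Of 17 stress and immediate early genes 16 were found by symbol in the counts (not Ddit3), and 13 were read. Of these 1, Hspa1a (0.974 and 22.5 CPM), was past the fold in the mesenchyme, a share near the 5.08% of all genes. Fos was at 327 CPM in the epithelium and 659 CPM in the mesenchyme, and at 71.6 and 39.9 CPM in the mesenchymal cells of Nkx2.5-Cre;mTmG and Nkx3.2-Cre;mTmG. Egr1 was at 148.5, 245, 35.4 and 40.3 CPM in the same order. Line, sorting gate and plate cannot be told apart for the levels of these genes in the other lines.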
